A study of Homo sapiens with 8 samples.

Results

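The centromeres of chromosomes 13 and 21 are described here through the ChIRP-seq peaks that fell on them. Peaks were taken by position on build hs1, from every peak that starts between 15000000 and 18999999 on chromosome 13 or between 10900000 and 11999999 on chromosome 21. The asynchronous list held 995 such peaks of 32035 and the mitotic list 986 of 33553, together 1981 of 65588. In ChIRP-seq, biotinylated antisense probes capture a chosen RNA from sonicated chromatin, and the DNA that comes with it is sequenced. Here the probes were directed against α-satellite RNA. The cells were RPE1, an immortalised human retinal pigment epithelium line of wild-type genotype, grown asynchronously or taken in mitosis (labelled Meta), with no other treatment given in the labels. The labels name 8 libraries, for each condition an input, a library called Scr, and probe sets called Odd and Even. Each peak list comes from the merged Odd and Even libraries of its condition, so there was no replicate error and no difference between conditions was tested. Intervals given with shares and ratios of counts are exact 95% binomial intervals that cover counting error only and treat neighbouring peaks as independent. The depth of the libraries is unknown from these lists.

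Human centromeres are built from α-satellite, a monomer of about 170 bp that is repeated in tandem and arranged into higher-order units, in which a fixed series of diverged monomers recurs almost without change. Most chromosomes carry a unit of their own. Chromosomes 13 and 21, both acrocentric, share nearly the same unit, with a canonical form of 11 monomers, so that short reads from the arrays can be hard to assign to a chromosome. Kinetochores assemble on such arrays, and RNA transcribed from them stays associated with centromeric chromatin. The sources used here do not say how reads that match both arrays were placed, nor how long these arrays are in RPE1. The part of either in the values below was not tested. Antisense probes can also pair with the repeat DNA itself, and the input and Scr libraries were not analysed here. The base sequence of the arrays was not used here, and all regions are given by position.

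Chromosome 21 was covered by a few very long peaks of high enrichment, and chromosome 13 by many short peaks of moderate enrichment. When peaks of both lists with gaps of at most 100 kb were joined, the chromosome 13 window held a single region, chr13:15547626-17576797, with 973 asynchronous and 964 mitotic peaks. The chromosome 21 window held the region chr21:10962530-11341447, with 22 asynchronous and 21 mitotic peaks, and 1 further mitotic peak of 150 bp at chr21:11657096-11657245, which lay 316 kb away and had a fold enrichment of 4.46. These regions are called the 2 arrays below. The chromosome 13 array was 5.36 times as long as that of chromosome 21, at 2029 kb against 379 kb, and held 44.2 times as many peaks in asynchronous and 45.9 times in mitotic cells. Its covered length was only 4.17 and 4.22 times as large.

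Peaks covered 73.7% of the chromosome 13 array in asynchronous and 75.5% in mitotic cells, against 94.7% and 95.7% of the chromosome 21 array. In base pairs this was 1495434 and 1531422 on chromosome 13, and 358815 and 362631 on chromosome 21. The density of peaks per 100 kb was 48.0 and 47.5 on chromosome 13, but 5.81 and 5.54 on the shorter array. The lower number of peaks on chromosome 21 therefore went with more complete coverage. The peaks of the 2 windows made up 3.04% (2.85 to 3.23%) and 0.0687% (0.0430 to 0.104%) of the asynchronous list, and 2.87% (2.70 to 3.06%) and 0.0656% (0.0411 to 0.0993%) of the mitotic list. Of the covered length of each list they held 3.15% and 0.755% in asynchronous cells and 3.18% and 0.754% in mitotic cells.

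**Figure D1:**
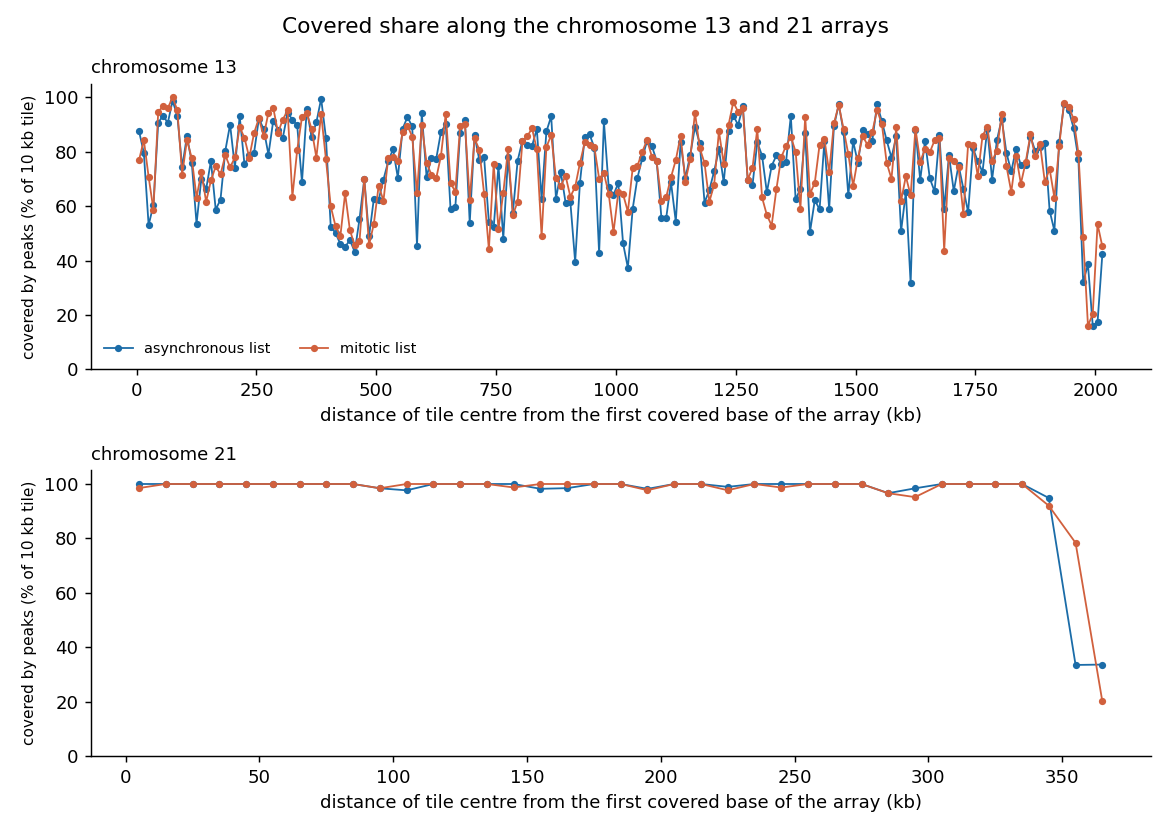
Covered share of each 10 kb tile (y axis, %) against the distance of the tile centre from the start of the array (x axis, kb), for chromosome 13 (top, 202 tiles) and chromosome 21 (bottom, 37 tiles), with asynchronous values in blue and mitotic values in orange. Chromosome 21 lies near 100% until its last tiles, while chromosome 13 varies around medians of 76.8% and 77.2%, and both arrays are thinly covered at their right end.

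Peak width set the arrays apart most clearly. The median width on chromosome 13 was 1023 bp in the asynchronous list (quartiles 696 and 1896 bp) and 1043.5 bp in the mitotic list (718 and 1994 bp), and the widest peak had 13872 and 22972 bp. On chromosome 21 the median was 2921.5 and 3045 bp, and the widest peak had 93915 and 93741 bp. Peaks of at least 5 kb held 94.3% and 91.98% of the covered length of the chromosome 21 array, against 13.4% and 16.2% on chromosome 13. By number, 10 of 22 asynchronous and 8 of 21 mitotic peaks on chromosome 21 were at least 5 kb wide, against 28 of 973 and 34 of 964 on chromosome 13. Over the whole lists 3.98% of asynchronous and 4.03% of mitotic peaks reached that width. Peaks of at least 10 kb were 6 of 22 and 7 of 21 on chromosome 21, and 3 of 973 and 5 of 964 on chromosome 13, where the whole lists had 1.11% and 1.14%. Peaks of at most 1 kb made up 48.4% and 48.5% of those on chromosome 13, where the whole lists had 56.6% and 60%.

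The authors' fold enrichment, a deposited ratio of signal to background whose exact formula is not stated, is used here only within each list. In the asynchronous list its median was 7.97 on chromosome 13 (quartiles 6.57 and 9.40) and 11.3 on chromosome 21 (7.04 and 15.2). The chromosome 13 median sat at the 53.3 percentile of all asynchronous peaks and the chromosome 21 median at the 89.4 percentile. In the mitotic list the medians were 9.50 (8.08 and 10.6) and 11.5 (9.02 and 13.95), at the 70.0 and 87.9 percentiles. When each peak counted by its width, so that long peaks weighed more, chromosome 13 had 8.73 and 9.94 and chromosome 21 had 14.7 and 13.7. Chromosome 21 was thus the higher in each list by either measure. Its median falls at the break between the groups of high and low peaks described below, so it stands for few peaks and its rank was not compared between lists.

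Strong peaks, those reaching a fold enrichment of 6 together with a deposited −log10 q of 5, were common on both arrays. They made up 73.7% of the whole asynchronous list, and on chromosome 13 they were 814 of 973 (83.7%, 81.2 to 85.9%). They made up 77.6% of the whole mitotic list, and on chromosome 13 they were 906 of 964 (94.0%, 92.3 to 95.4%). On chromosome 21, 20 of 22 passed in asynchronous cells (90.9%, 70.8 to 98.9%) and 21 of 21 in mitotic cells (100%, 83.9 to 100%). With so few peaks, the chromosome 21 shares cannot be told from those of chromosome 13 within their intervals.

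**Figure D2:**
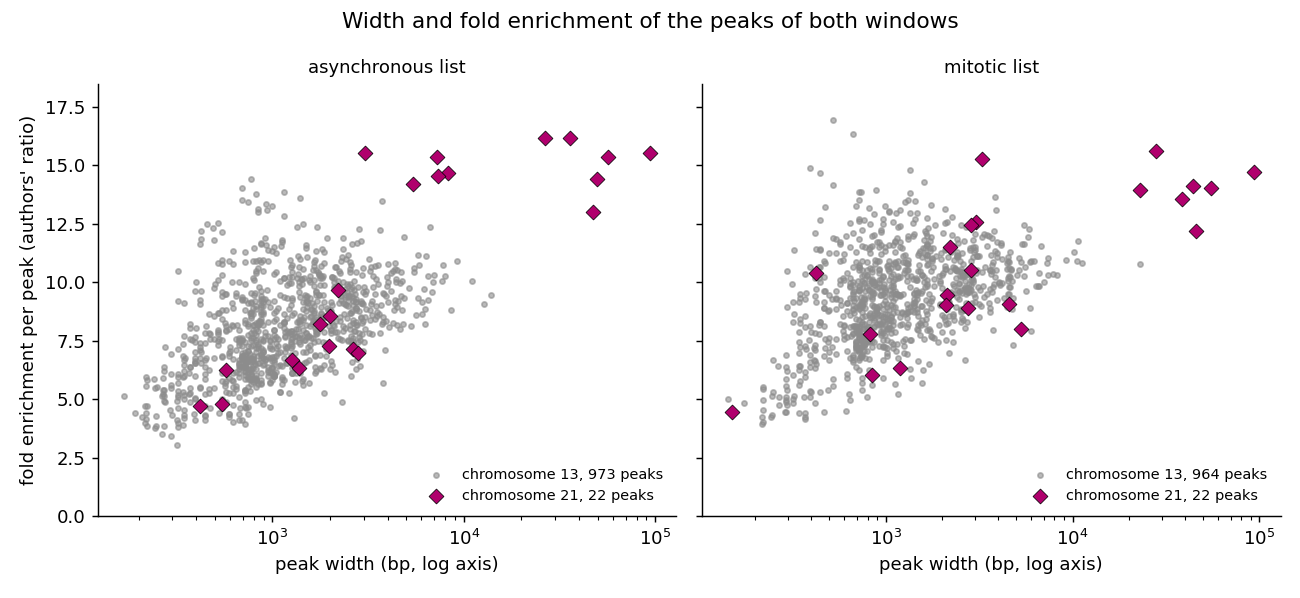
Fold enrichment of each peak (y axis, the authors' ratio) against its width in bp (x axis, log axis), with the asynchronous list on the left and the mitotic list on the right, chromosome 13 in grey and chromosome 21 as magenta diamonds. The chromosome 21 peaks fall into a group of 11 per list at high enrichment, most of them very wide, and a group that lies among the chromosome 13 peaks.

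The chromosome 21 array was made of a long, almost unbroken block and a short, thinly covered tail. The largest fall in fold enrichment between neighbouring peaks was from 13.01 to 8.24 at position 11305323 in the asynchronous list, and from 12.2 to 9.46 at 11303995 in the mitotic list. This boundary was chosen after the values had been seen, so the enrichment on its sides is a description. Left of it, 11 peaks in each list covered 99.6% of 342.8 kb in asynchronous and 99.5% of 341.3 kb in mitotic cells. Their median width was 26620 and 27796 bp. Their fold enrichment ran from 13.01 to 16.2 in the asynchronous list and from 11.5 to 15.6 in mitotic cells, with medians of 15.4 and 13.95 at the 99.8 and 97.9 percentiles of their lists. The narrowest peak of the block still had 3046 and 2221 bp, wider than the chromosome 13 median.

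The longest peak of the block had almost equal bounds in the 2 lists. It ran over chr21:10962530-11056444 in asynchronous cells, with a fold enrichment of 15.5, and over chr21:10962679-11056419 in mitotic cells, with 14.7. The next longest asynchronous peaks were chr21:11192353-11249070, of 56718 bp, and chr21:11072428-11121824, of 49397 bp. In the mitotic list they were chr21:11056576-11111548, of 54973 bp, and chr21:11258051-11303995, of 45945 bp. Each of these asynchronous peaks was covered over at least 99.7% in the mitotic list, but the 2 shorter ones met 2 mitotic peaks each. The mitotic peak of 54973 bp likewise met 3 asynchronous ones. The peak with the highest fold enrichment on the chromosome in the asynchronous list was chr21:11129427-11156046, at 16.2, and in the mitotic list chr21:11156228-11184023, at 15.6.

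What broke the block into peaks were short uncovered gaps, of which each list had 10. Their widths ran from 104 to 179 bp in the asynchronous list (median 158 bp) and from 102 to 304 bp in the mitotic list (median 145 bp). They summed to 1501 and 1694 bp. No gap of either array was narrower than 101 bp in either list, so narrower breaks, if any, were not seen. Of the 10 gaps, 5 recurred at overlapping positions in both lists: chr21:11056445-11056602, chr21:11156047-11156225, chr21:11249071-11249249, chr21:11252296-11252453 and chr21:11257871-11258029 in asynchronous coordinates. The other 5 asynchronous gaps and the other 5 mitotic gaps were fully covered in the opposite list. Peak positions moved on a grid, with 98.8% of asynchronous and 99.7% of mitotic chromosome 13 starts, and 100% and 90.9% of those on chromosome 21, lying 0 to 5 bp past a multiple of 25 bp, so gap widths are resolved to about that step.

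The tail to the right of the boundary resembled chromosome 13 more than the block beside it. It held 11 asynchronous and 10 mitotic peaks, with median widths of 1770 and 2107 bp and median fold enrichments of 6.997 and 8.95. They covered 49.7% of 35.2 kb and 61.6% of 37.3 kb. The highest fold enrichment in the tail was 9.68 in the asynchronous list, and 79.2% of chromosome 13 peaks lay at or below it. In the mitotic list it was 10.5, and 72.2% lay at or below it. Conversely, few chromosome 13 peaks reached the level of the block in the asynchronous list, and a larger share did in the mitotic list. In the asynchronous list 12 of 973 (1.23%) exceeded the lowest peak of the block, and they had a median width of 883 bp and at most 3721 bp. In the mitotic list 117 of 964 (12.1%) did, with a median width of 1318 bp and at most 10644 bp. The shares of the whole lists above these levels are not given here. The block median was exceeded by 0 asynchronous and 7 mitotic chromosome 13 peaks.

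On chromosome 13 the peaks of highest fold enrichment were short and lay apart from each other. In the asynchronous list they were chr13:16631051-16631822, at 14.4, chr13:15798880-15799574, at 14.05, and chr13:16734379-16735521, at 13.9. In the mitotic list they were chr13:17370826-17371348, at 16.9, chr13:16185551-16186222, at 16.3, and chr13:17302354-17302747, at 14.9. Each was covered over at least 98.1% in the opposite list. The widest asynchronous peaks, chr13:16803427-16817298, chr13:15614005-15626697 and chr13:15926577-15937572, had fold enrichments of 9.48, 9.07 and 10.1. The widest mitotic peak, chr13:15613226-15636197, had 10.8, and it joined a stretch that 4 asynchronous peaks covered. The next widest mitotic ones were chr13:17008653-17019895, with 10.8, and chr13:17482478-17493121, with 11.8. Width and fold enrichment thus peaked at different places on this array.

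A stretch near the right end of the chromosome 13 array stood out in pileup in both lists. The array was cut into 202 tiles of 10 kb, and the pileup of the peaks in each tile, in the authors' units and unstated scaling, was averaged by width. This division was added after the values had been seen. The median tile had a pileup of 9.93 in asynchronous and 12.3 in mitotic cells. Only the 3 neighbouring tiles over chr13:17477626-17507625 reached 1.5 times that level, and they did so in both lists. Their pileups ran from 16.7 to 21.4 in the asynchronous list, where no other tile exceeded 13.6, and from 19.2 to 21.8 in the mitotic list, where no other tile exceeded 15.5.

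Coverage of this stretch was 93.8% in asynchronous and 95.5% in mitotic cells, against 74.5% and 76.1% of the array to its left. It held 9 and 7 peaks, with median widths of 3721 and 3818 bp. The peak of highest pileup in the whole chromosome 13 window lay here in each list, chr13:17479427-17481296 at 25.5 in asynchronous and chr13:17479402-17482372 at 23.8 in mitotic cells, at the 99.97 and 99.8 percentiles of their lists. The stretch was chosen around the tile of highest pileup, so its high pileup and that of its peaks follow from the choice. The width-weighted pileup of the stretch was 19.2 and 20.6. In the chromosome 21 block it was 23.8 and 25.1, and single peaks ran from 22.4 to 25.4 and from 23.8 to 26.8. In width-weighted pileup the stretch thus lay between the rest of its array and the block. Its coverage exceeded that of the array to its left as a whole, but not that of every part. The best covered tile of the stretch had 97.39% in asynchronous and 97.91% in mitotic cells. Tiles elsewhere on the array reached 99.47% and 100%. In the mitotic list the neighbouring tiles over chr13:15597626-15627625 had 96.68%, 95.95% and 100%, each above the 95.5% of the stretch. Fold enrichment of the stretch, weighted by width, was 11.4 and 10.8, against 8.72 and 9.96 to its left and 15.1 and 14.04 over the block. In the asynchronous list the chromosome 13 tile of highest fold enrichment, at 11.93, lay in the stretch. In the mitotic list the tile over chr13:15907626-15917625, outside the stretch, had 11.87, above the 11.57 of the highest tile in the stretch. Pileup divided by fold enrichment was 1.71 and 1.98 in the stretch, 1.14 and 1.24 to its left, and 1.59 and 1.80 in the block. Since the formula of the fold enrichment is not stated, this quotient need not scale with the local background.

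**Figure D3:**
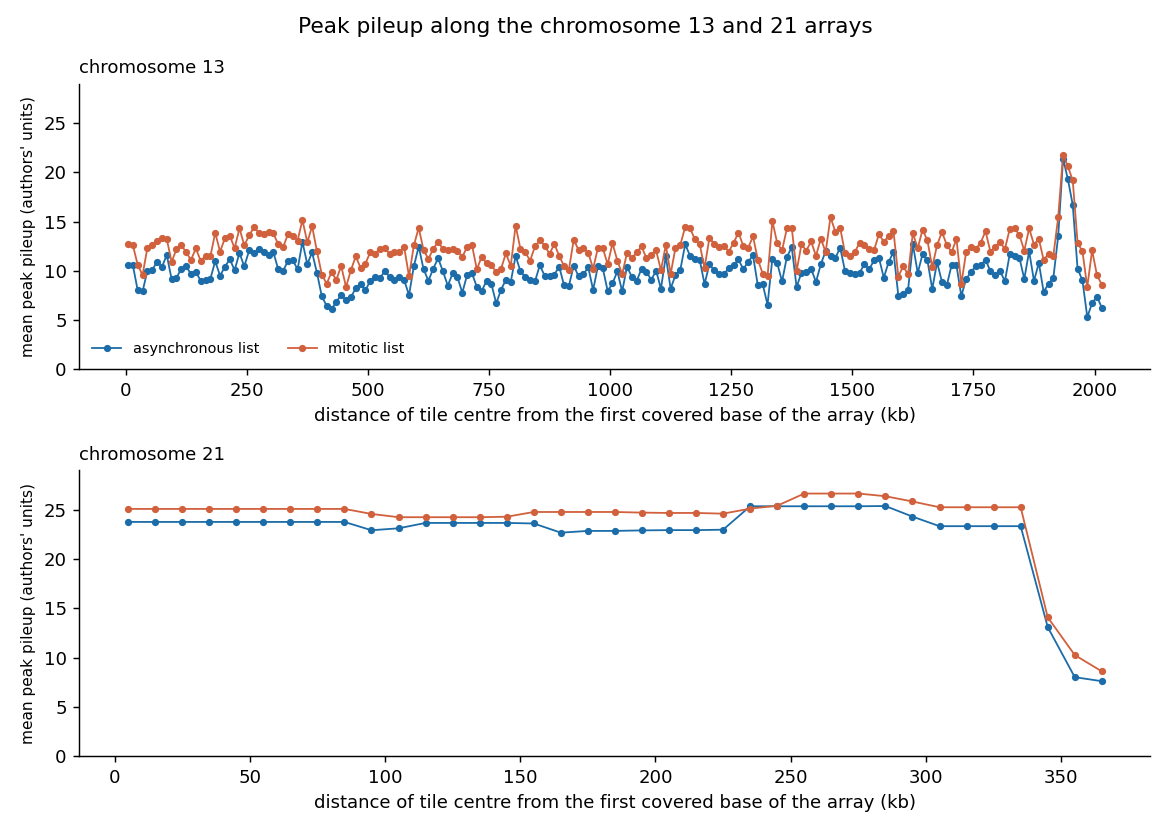
Width-weighted mean pileup of the peaks in each 10 kb tile (y axis, authors' units) against the distance of the tile centre from the start of the array (x axis, kb), for chromosome 13 (top) and chromosome 21 (bottom), with asynchronous values in blue and mitotic values in orange. Each peak carries 1 value, so tiles under the same long peak on chromosome 21 repeat it; the 3 high tiles on chromosome 13 begin 1930 kb from the start, and the fall at the right end of chromosome 21 follows its block.

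Both arrays ended on the right, the side of the long arm, in sparse coverage, and began on the left without it. The last 50 kb of the chromosome 13 array were covered over 35.4% in asynchronous and 44.0% in mitotic cells, and the first 50 kb over 74.2% and 77.1%. On chromosome 21 the last 50 kb, which include part of the block, reached 62.8% and 71.1%, and the first 50 kb 100% and 99.7%. After the high stretch on chromosome 13, the remaining 69.2 kb were covered over 41.4% and 49.4% with width-weighted fold enrichments of 6.88 and 8.75, close to the 7.47 and 8.70 of the chromosome 21 tail over its common bounds. The 3 longest stretches of chromosome 13 that neither list covered lay in this end, at chr13:17516273-17522300, chr13:17544673-17550451 and chr13:17527725-17530600, of 6028, 5779 and 2876 bp. Those of chromosome 21 lay in its tail, with the longest at chr21:11331396-11333849, of 2454 bp. On both chromosomes a stretch of high pileup was thus followed by a sparse end, at very different lengths; these bounds were chosen after the values had been seen.

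Along chromosome 13 coverage varied from tile to tile, in the median by more than the same tile differed between the lists. Neighbouring tiles differed by a median of 9.98 percentage points in asynchronous and 8.68 in mitotic cells. The same tile differed between the lists by a median of 5.04 points and by up to 36.15 points. The longest run of tiles below the median of coverage in both lists was of 12 tiles, over chr13:15947626-16067625, covered over 54.5% and 55.7%. Its width-weighted fold enrichment was 7.10 in asynchronous and 8.64 in mitotic cells. Over the 19 bins of 100 kb that lay wholly inside the array, coverage ran from 62.1 to 87.2% in asynchronous and from 63.4 to 88.1% in mitotic cells. The bin from 15800000 to 15899999 had the highest value in both. Coverage of the bins in the 2 lists had a Pearson r of 0.92 and a Spearman rho of 0.86 (n = 19 bins), a description only, since the lists share the reference sequence and the probes. Bins of high coverage also had a high median fold enrichment, with r of 0.76 in asynchronous and 0.77 in mitotic cells over the same 19 bins, and these values come from the same peaks.

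The second question was how far the mitotic peaks matched the asynchronous ones on each chromosome. Peak number differed little, with a mitotic to asynchronous ratio of 0.991 (0.905 to 1.08) on chromosome 13 and 0.955 (0.499 to 1.82) in the chromosome 21 array. Covered length was 1.02 and 1.01 times as large in the mitotic list, a difference of 35988 and 3816 bp. Of the 19 chromosome 13 bins, 13 were covered more in the mitotic list and 6 less, and 17 differed by at most 5 percentage points. The widest differences were in the bins from 16900000 to 16999999, from 70.8 to 77.5%, from 17500000 to 17599999, which extends past the array, from 35.4 to 41.2%, and from 16500000 to 16599999, from 62.1 to 67.4%. On chromosome 21 the widest difference was in the bin from 11300000 to 11399999, which holds the tail, from 22.8 to 27.0%. In the 3 bins that lay wholly inside the array the lists differed by at most 0.46 percentage points.

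Most of the covered length was shared. The lists had 1342877 bp in common on chromosome 13, a Jaccard index (shared over combined base pairs) of 79.7%, and 353575 bp on chromosome 21, an index of 96.1%. Coverage alone, with the positions of the lists independent of each other, would give 59.5% and 90.8%, so most of the index on chromosome 21 follows from its coverage. At an overlap of at least 1 bp, 81.9% of all asynchronous peaks met a mitotic peak, and on chromosome 13 it was 907 of 973 (93.2%, 91.5 to 94.7%). Among mitotic peaks 79.2% of the whole list met one in the other list, and for chromosome 13 the number was 874 of 964 (90.7%, 88.6 to 92.4%). Asynchronous and mitotic shares were 94.8% and 93.6% on chromosome 14, and 86.4% and 84.3% on chromosome 22. Gaps on chromosome 13 had medians of 382 and 406 bp, shorter than the median peak widths of 1023 and 1043.5 bp. At 1 bp these shares therefore cannot separate agreement between conditions from dense coverage. On chromosome 21, 19 of 22 (86.4%, 65.1 to 97.1%) and 18 of 21 (85.7%, 63.7 to 97.0%) were met. The unmet peaks of the array lay in the tail; in the block, where no gap exceeded 304 bp and no peak was narrower than 2221 bp, every peak had to meet another. When the overlap had to span at least 50% of both peaks, the chromosome 21 shares were 54.5% and 57.1% and those of chromosome 13 67.7% and 68.4%, where the whole lists had 53.8% and 51.3%.

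Unmet peaks on chromosome 13 were short. The 66 asynchronous ones had a median width of 533 bp and a median fold enrichment of 5.87, against 1118 bp and 8.17 for those met. The 90 mitotic ones had 693 bp and 7.69, against 1098.5 bp and 9.63. A wider peak can meet another more easily, so the widths follow in part from the overlap rule. Of the asynchronous peaks 123 of 973 (12.6%) met 2 or more mitotic ones, against 16.4% on chromosome 14 and 15.9% on chromosome 22. Of the mitotic peaks 143 of 964 (14.8%) met 2 or more asynchronous ones, against 15.8% and 20.04%. The uncovered parts overlapped, with 345193 bp of chromosome 13 covered in neither, 64.7% of the length uncovered in asynchronous and 69.4% of that in mitotic cells. These shares were 62.8% and 66.8% on chromosome 14, and 57.5% and 62.2% on chromosome 22. Of the whole chromosome 13 array, 26.3% was uncovered in asynchronous and 24.5% in mitotic cells. On chromosome 13, 799 of 972 asynchronous gaps (82.2%) overlapped a mitotic gap, near the 80.9% on chromosome 14 and above the 74.4% on chromosome 22, with no test of the difference.

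Numbered calls that are not in the lists were unevenly spread over the arrays. Peak names carry running numbers that follow position, and a number that is skipped was read as a call that was not listed. By these numbers the listed peaks made up 42.4% of all asynchronous and 22.4% of all mitotic calls, and 62.1% of those in the largest regions of all chromosomes in either list. On chromosome 13 they were 973 of 1311 (74.2%, 71.8 to 76.6%) in the asynchronous list and 964 of 1225 (78.7%, 76.3 to 81.0%) in the mitotic list. In the chromosome 21 block 11 of 11 were listed in each list (100%, 71.5 to 100%), and in its tail 11 of 21 (52.4%, 29.8 to 74.3%) and 10 of 22 (45.5%, 24.4 to 67.8%). On chromosome 13, 338 asynchronous and 261 mitotic calls were not listed. The coverage, gaps and spacing of chromosome 13 and of the tail are thus those of the listed calls only. The rule that chose these calls is not stated, so an uncovered stretch need not lack signal.

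The order of covered bases along chromosome 13 repeated at set distances. Each base was marked as covered or not, and the autocorrelation of these marks (their correlation with themselves after a shift along the array) was taken at lags of 300 to 6000 bp over 2029172 positions. Beyond the fall at the shortest lags, the highest local maximum lay at a lag of 1177 bp in the asynchronous list (0.20) and 1198 bp in the mitotic list (0.21), near 7 monomers of 170 bp, which make 1190 bp. Lower maxima lay at 2352 and 2375 bp, near 14 monomers, at 3075 and 3073 bp, near 18, at 4251 and 4274 bp, near 25, at 4874 and 4876 bp, not close to a whole number of monomers, and at 5450 bp in both, near 32. At 11 monomers, 1870 bp, the length of the canonical unit, there was no maximum: the value was 0.064 in asynchronous and 0.021 in mitotic cells, where the lowest value of all these lags lay at 1858 bp.

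Distances between peak starts gave a like result. The most frequent distance in a sliding window of 51 bp was 1175 bp in the asynchronous list, with 74 of 2634 pairs of starts up to 6 kb apart, and 1174 bp in the mitotic list, with 85 of 2665 pairs. The next most frequent were 4252 and 3075 bp in asynchronous and 3050 and 2377 bp in mitotic cells. Taken from peak ends the most frequent asynchronous distance was 3053 bp, and from midpoints 1381 bp. The lists share a reference, so their likeness is not independent, and spacing that comes from the repeat sequence or from the placement of reads cannot be told apart from spacing of the RNA. On chromosome 21 there were only 14 and 17 pairs of starts within 6 kb, too few to describe spacing, and its autocorrelation, which fell slowly from 0.62 and 0.50 at 7 monomers to 0.45 and 0.41 at 25, mainly reflects the block and tail. Whether the 2 arrays share a spacing could therefore not be seen.

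**Figure D4:**
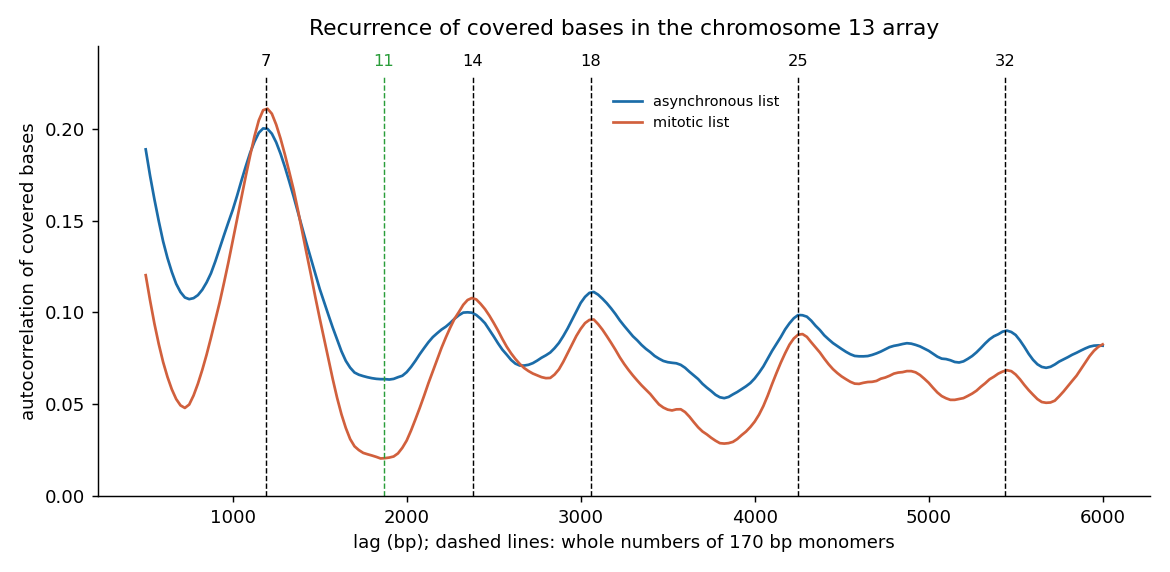
Autocorrelation of covered bases in the chromosome 13 array (y axis) against lag in bp (x axis), with the asynchronous list in blue and the mitotic list in orange; dashed lines mark whole numbers of 170 bp monomers. The curves have maxima near 7, 14, 18, 25 and 32 monomers (black), a further one near 4874 bp, and lie low at 11 monomers (green).

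The other acrocentric pair with a nearly shared repeat, chromosomes 14 and 22, also differed, but less in coverage and median width. Their largest regions, chr14:10067329-12783724 and chr22:12764941-15782648, were covered over 77.9% and 70.7% in asynchronous and 79.2% and 72.9% in mitotic cells. Their median widths were 1270 and 1019 bp in asynchronous and 1291 and 1097 bp in mitotic cells, and their median fold enrichments 9.20 and 7.40, and 10.5 and 8.40. The 2 regions were of nearly equal length, at 2716 and 3018 kb. Peaks of at least 10 kb were 6 of 1175 on chromosome 14 and 32 of 1200 on chromosome 22 in the asynchronous list, and 5 of 1180 and 28 of 1133 in mitotic cells. Peaks of at least 5 kb held 17.1% and 33.3% of the covered length in asynchronous cells and 18.52% and 34.6% in mitotic ones. In coverage and median width chromosome 13 lay close to this pair and chromosome 21 above it. In median fold enrichment of the mitotic list chromosome 21, at 11.5, was nearer to chromosome 14 than chromosome 22 was. On chromosome 14 the highest local maximum of the autocorrelation lay at 2725 bp in both lists (0.18 and 0.19), near 16 monomers, and on chromosome 22 at 2700 and 2701 bp (0.18 and 0.20), while chromosome 13 had 0.072 and 0.067 at 16 monomers. At 7 monomers, without a local maximum there, chromosome 22 had 0.24 and 0.25 and chromosome 14 had 0.13 and 0.11.

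Among the largest regions of 23 chromosomes, that of chromosome 21 was the shortest and had the fewest peaks. Its coverage ranked 2nd in asynchronous and 1st in mitotic cells, its median width 2nd and 3rd, and its median fold enrichment 2nd and 3rd. Weighted by width, its fold enrichment ranked 1st in both lists, with the next region at 12.9 and 12.6. Chromosome 13, the 20th in length, ranked 9th in coverage in both lists, 12th in median width in both, and 14th and 9th in median fold enrichment. These ranks are a description over 1 list per condition, and since regions were bounded by their own peaks they carry no test.

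**Figure D5:**
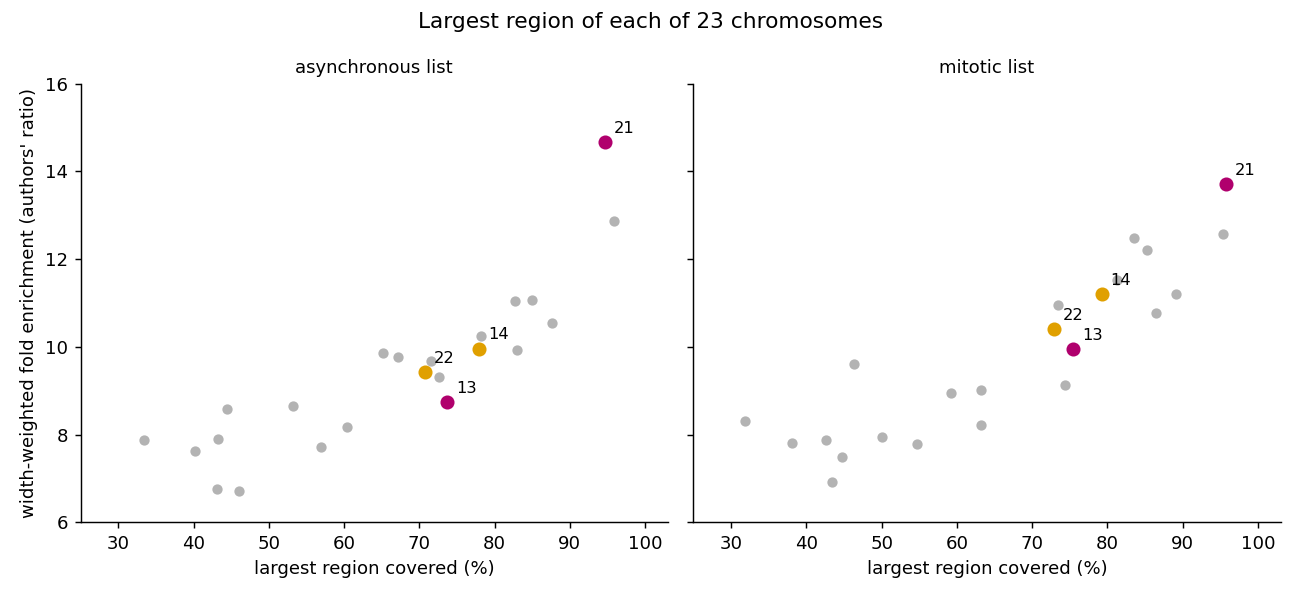
Width-weighted fold enrichment (y axis, authors' ratio) against the covered share of the largest region (x axis, %) for 23 chromosomes, 1 point each, with the asynchronous list on the left and the mitotic list on the right. Chromosomes 13 and 21 are magenta, 14 and 22 yellow and the others grey; chromosome 21 has the highest width-weighted fold enrichment in both lists, and chromosome 13 lies near 14 and 22.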

How the data were processed

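Sequenced DNA from α-satellite ChIRP in RPE1 cells was analysed as 1 deposited peak list per condition, grouped by sample title. Per the submitters' processing notes the tools were MACS2, Bowtie2 and fastp, without versions, and the build was hs1. The sources used here do not give aligner settings, the control library or the placement of multiply matching reads. Without a header, column meanings were inferred from the values and from how MACS2 lays out broad peaks. The deposited columns used are the pileup signal (unstated scaling), the −log10 q value, the fold enrichment (a ratio) and 3 unnamed scores, with lowest values of 0.3, 1.0 and 1.5. Start, end and length fit coordinates counted from 1. No genome or annotation of hs1 was used, so neither genes nor base sequences are given.

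Covered length was the union of peaks, overlap required 1 bp, and exact Clopper-Pearson intervals are at 95%. Peaks named are the 3 widest and the 3 of highest fold enrichment per chromosome and list, and bins the 3 with the widest difference. The peaks, the tests and their alternatives were chosen with earlier results of these data known. The boundary on chromosome 21, the tiles, the array ends, the grid and the width-weighted values were added later. No per-sample column was left out (0 unused). The overlap, joining and recurrence code was checked on simulated data. For recurrence, steps of 7 and 11 monomers were mixed, and a lag near 7, 11 or 18 monomers was accepted. That check therefore does not show that the code tells 7 monomers from 11. Scripts ran in Python 3.11.15 with scipy 1.17.1, pandas 2.3.3, matplotlib 3.10.9 and numpy 2.4.6.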

Additional observations from a re-analysis of the deposited data

How the results depend on the processing

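Peak numbers and covered lengths of both windows stayed within 1.5 times of the values given when only strong peaks, only peaks of at least 500 bp or only the arrays were used, and the covered share of both arrays was the same with joining gaps of 25 and 250 kb. With strong peaks only, the peak number ratio on chromosome 13 turned to 1.11; the mitotic list loses fewer peaks to that limit. Requiring 50% reciprocal overlap lowered the peaks met on chromosome 13 to 67.7% of asynchronous and 68.4% of mitotic peaks, and on chromosome 21 to 54.5% and 57.1%; over the whole lists it left 53.8% and 51.3%. With strong peaks only, 95.1% of asynchronous and 83.9% of mitotic peaks on chromosome 13 were met. That limit left 814 of 973 asynchronous but 906 of 964 mitotic peaks, so mitotic peaks had fewer peaks left to meet. The same shares over all strong peaks of the lists are not given here, so the split is not a result about chromosome 13. The share of chromosome 21 bins covered more in the mitotic list went from 66.7% of 3 bins to 33.3% with bins of 50 kb and 0% with bins of 200 kb, so no direction holds there; on chromosome 13 it was 65.0% and 77.8%. The most frequent distance on chromosome 13 became 3053 bp from asynchronous peak ends and 1381 bp from midpoints, and the cause was not tested; in the mitotic list it stayed between 1173 and 1176 bp. Leaving out a library was not possible, because each list comes from merged libraries. No paired analysis was possible because the labels give no replicate numbers and there is 1 list per condition. Depth is unknown, and shares over the 22 and 21 peaks of chromosome 21 are limited by their number.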

Other observations

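The 3 unnamed deposited scores, whose meaning is not stated, differed in how they ordered the parts of the arrays. The score that never falls below 1.5 had a median of 53.4 in the chromosome 21 block of asynchronous cells and 65.9 in that of mitotic cells, at the 99.7 and 99.9 percentiles of the lists. In the tail of chromosome 21 its median was 4.89 and 4.83, and over the chromosome 13 array it was 5.56 and 5.26. In the high stretch of chromosome 13 the median was 19.6 and 40.4, with a highest value of 99.6 and 67.4. The peak with the highest such score of chromosome 13 was the one of highest pileup in each list.

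The score that never falls below 0.3 and never exceeds 1 placed the block lower, at the 76.5 and 85.6 percentiles of the lists, with medians of 0.873 and 0.936 in the block, 0.5501 and 0.629 in the tail, 0.707 and 0.756 over the chromosome 13 array, and 0.898 and 0.923 in its high stretch. In asynchronous cells the high stretch thus stood above the block on this score and below it on the other.

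The score that never falls below 1.0 ran another way. Its median in the asynchronous block was 1.05, at the 5.31 percentile of the list, below the 1.30 of the chromosome 13 array and the 1.83 of the tail. In mitotic cells the medians were 1.31 in the block, 1.20 over the chromosome 13 array and 1.35 in the tail.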
